A study of Mus musculus with 34 samples.

Results

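BATF binding was compared between regulatory T (Treg) cells that use a mutant Foxp3 protein, R397W, and control Treg cells that use wild-type Foxp3. The members are all 9973 BATF peaks of the authors' table for this experiment, out of 41612 peaks in the 4 peak tables of the series, and no peak was left out. The cells were sorted fresh from the spleen and lymph nodes of mice of the strain C57BL6/J, and BATF-bound chromatin was immunoprecipitated and sequenced. R397W cells came from mice with the genotype Foxp3R397W-IRES-hCD2/Foxp3-IRES-GFP (2 libraries) and control cells from mice with Foxp3WT-IRES-hCD2/Foxp3-IRES-GFP (2 libraries). All of them therefore carried a GFP-marked wild-type Foxp3 allele, and both groups were sorted as CD4+hCD2+GFP-, so the hCD2-marked allele was the one in use. The same table holds BATF in Treg cells (CD4+hCD2+, 2 libraries) and conventional CD4 T (Tconv) cells (CD4+hCD2-, 2 libraries) of Foxp3-IRES-hCD2 mice with no GFP allele, which do not enter the R397W comparison. Sites of 2 other factors came from the other tables, all from mice with the Foxp3-IRES-hCD2 allele. Foxp3 was measured in effector Treg (CD4+hCD2+CCR7loCD62Llo) and central Treg (CD4+hCD2+CCR7hiCD62LhiCD44lo) cells, in Treg cells that lack Batf (Foxp3-IRES-hCD2.Batf-/-) and in Treg cells with it, with 2 libraries each. For IRF4 there were 4 libraries of Treg cells and 4 of Tconv cells. The labels do not say whether libraries of a group came from separate mice, so p-values measure only the spread between these libraries.

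Foxp3 is the lineage-defining transcription factor of Treg cells, and its gene lies on the X chromosome, so that a female cell with 2 different alleles uses only 1 of them. R397W changes a residue of the forkhead domain, the part of Foxp3 that contacts DNA. BATF is a small basic leucine zipper protein of the AP-1 family. It pairs with a Jun protein on AP-1 sites, often beside IRF4, an interferon regulatory factor, and is known for opening chromatin in activated T cells and for the differentiation of effector and tissue Treg cells.

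Promoter sequence could be shown for a small part of the peaks. A window from 250 bases before to 50 bases after the start was listed for 32817 RefSeq starts (GRCm38.p6, the same assembly as mm10), and 3289 of these starts lay inside a BATF peak. The AP-1 motif was searched as TGANTCA, which reads the same on both strands, and was found in 7.81% of all windows and in 4.23% of those with the start inside a BATF peak. It was found in 5 of 15 windows inside peaks lower in R397W cells (12 peaks) and in 2 of 21 windows inside peaks higher in R397W cells (19 peaks). The cyclic AMP response element TGACGTCA, whose matches cannot overlap a TGANTCA match in position, was found in 1.79% of all windows and 3.65% of those inside a BATF peak. The 3 windows with an AP-1 match that belong to named protein-coding genes and lie in a changed peak are printed 5′ to 3′, with the AP-1 match in capitals. Tnfrsf8 encodes the TNF receptor CD30, Dclk1 a microtubule-associated kinase and Gatad2a a subunit of the NuRD chromatin complex. The Tnfrsf8 window is chr4:145315115-145315414 on the minus strand, and its match begins 132 bases before the start. The Dclk1 window is chr3:55461478-55461777 on the plus strand, with matches 59 and 20 bases before the start. The Gatad2a window is chr8:69974334-69974633 on the minus strand, with a match 222 bases before the start.
Tnfrsf8: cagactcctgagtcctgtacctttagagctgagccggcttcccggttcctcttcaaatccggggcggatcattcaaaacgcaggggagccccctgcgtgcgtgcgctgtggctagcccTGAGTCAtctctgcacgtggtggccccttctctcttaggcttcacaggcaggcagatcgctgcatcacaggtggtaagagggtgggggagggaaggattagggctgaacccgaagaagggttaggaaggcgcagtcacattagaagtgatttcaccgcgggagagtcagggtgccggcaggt
Dclk1: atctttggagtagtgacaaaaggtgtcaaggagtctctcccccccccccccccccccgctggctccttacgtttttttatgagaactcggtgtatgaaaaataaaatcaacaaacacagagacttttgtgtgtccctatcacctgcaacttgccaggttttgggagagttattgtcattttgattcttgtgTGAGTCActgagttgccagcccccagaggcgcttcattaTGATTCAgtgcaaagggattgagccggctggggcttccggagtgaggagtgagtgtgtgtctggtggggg
Gatad2a: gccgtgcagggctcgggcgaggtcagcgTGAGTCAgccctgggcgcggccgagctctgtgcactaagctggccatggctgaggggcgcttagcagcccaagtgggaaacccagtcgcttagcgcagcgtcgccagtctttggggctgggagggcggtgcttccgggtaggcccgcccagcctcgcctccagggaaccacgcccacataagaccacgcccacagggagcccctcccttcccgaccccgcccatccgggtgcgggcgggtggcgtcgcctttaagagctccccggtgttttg
A match describes these letters and shows no bound site, and a window without one says only that the letters are not in it.

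Values are the authors' normalised peak scores, each a number of reads in a peak times 1 scale factor per library. The R397W libraries held 265351 and 655609 reads in peaks, against 312181 and 144319 in control columns 1 and 2. The median peak had 22 and 52 reads in the R397W libraries and 26 and 12 reads in the control columns, so control column 2 is the shallowest and 1 of its reads is worth a value of 3.46. Across peaks, log2 values of the R397W libraries correlated with each other at r = 0.79 and those of the control columns at r = 0.80, while the r between the groups lay between 0.51 and 0.64. With the Tconv libraries, r was 0.67 to 0.70 for the R397W libraries and 0.19 to 0.28 for the control columns. With the Treg libraries, r was 0.66 to 0.74 for the R397W libraries and 0.75 to 0.85 for the control columns. These r describe 9973 peaks that share libraries and scaling, and carry no test.

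BATF was lower in R397W cells at 802 peaks and higher at 61 peaks by limma on log2(value + 1) at a Benjamini-Hochberg adjusted p under 0.05. These are 8.04% and 0.612% of the peaks tested. Lower peaks had a median log2 difference of -1.85, with 329 of them past 4-fold, and higher peaks had one of 1.46. With 2 libraries per group small differences seldom pass the test, so the sizes and values at called peaks follow in part from the threshold. The median over all peaks was -0.02, with quartiles at -0.57 and 0.39. Lower peaks had median values of 18.8 and 20.4 in R397W cells and 63.2 and 72.6 in control cells. Higher peaks had medians of 75.2 and 68.6 in R397W cells and 27.8 and 20.8 in control cells. The 2 groups did not overlap at any of the 863 called peaks, which has to be read against all peaks, of which 28.8% had both R397W values under both control values and 22.7% had them above. A smaller number of cells with a bound site and less BATF per cell cannot be told apart in such bulk data. The counts rest on few libraries: without control column 2 there were 124 lower and 17 higher peaks, without control column 1 there were 468 and 182, without R397W 1 there were 459 and 1, and without R397W 2 there were 610 and 6. Of the 124 peaks lower without control column 2, 122 were among the 802. Whichever library was left out, 86 of the 802 lower peaks kept their call, and 0 of the 61 higher peaks did.

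The lower peaks were mostly sites where BATF binds more in Treg than in Tconv cells. From the Treg and Tconv libraries, which the R397W comparison does not use, limma called 2206 peaks (22.1%) higher in Treg cells and 963 (9.66%) higher in Tconv cells, here named Treg-preferring and Tconv-preferring. Of the Treg-preferring peaks, 751 were lower in R397W cells (34.0%) and 0 were higher. Of the Tconv-preferring peaks, 0 were lower and 33 were higher (3.43%). Of the 6804 peaks with neither preference, 51 were lower (0.75%) and 28 were higher. Treg-preferring peaks thus made up 93.6% of the lower peaks and all 86 of those that kept their call whichever library was left out, and Tconv-preferring peaks 54.1% of the higher ones. The median log2 difference between R397W and control cells was -1.07 at Treg-preferring, 0.55 at Tconv-preferring and 0.12 at other peaks. It was below 0 at 94.5% of Treg-preferring peaks and above 0 at 83.8% of Tconv-preferring peaks, beside 50.8% below 0 over all peaks.

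The direction held when a Treg or Tconv library was left out, although the number of peaks with a called preference did not. Without Treg 1 limma called 0 peaks in either direction, and without Treg 2 it called 784 and 234. The log2 difference between Treg and Tconv cells was above 0 at 799 of the 802 lower peaks with all libraries, and at 795 to 798 of them without 1 of these libraries. It was below 0 at 58 of the 61 higher peaks with all libraries, and at 54 to 58 without 1 of them. Across all 9973 peaks the 2 log2 differences correlated at r = -0.72 (rho = -0.64), a description over peaks that share a peak list and scaling but no library. Leaving out a library of the R397W comparison kept the median at Treg-preferring peaks between -1.17 and -1.01.

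**Figure D1:**
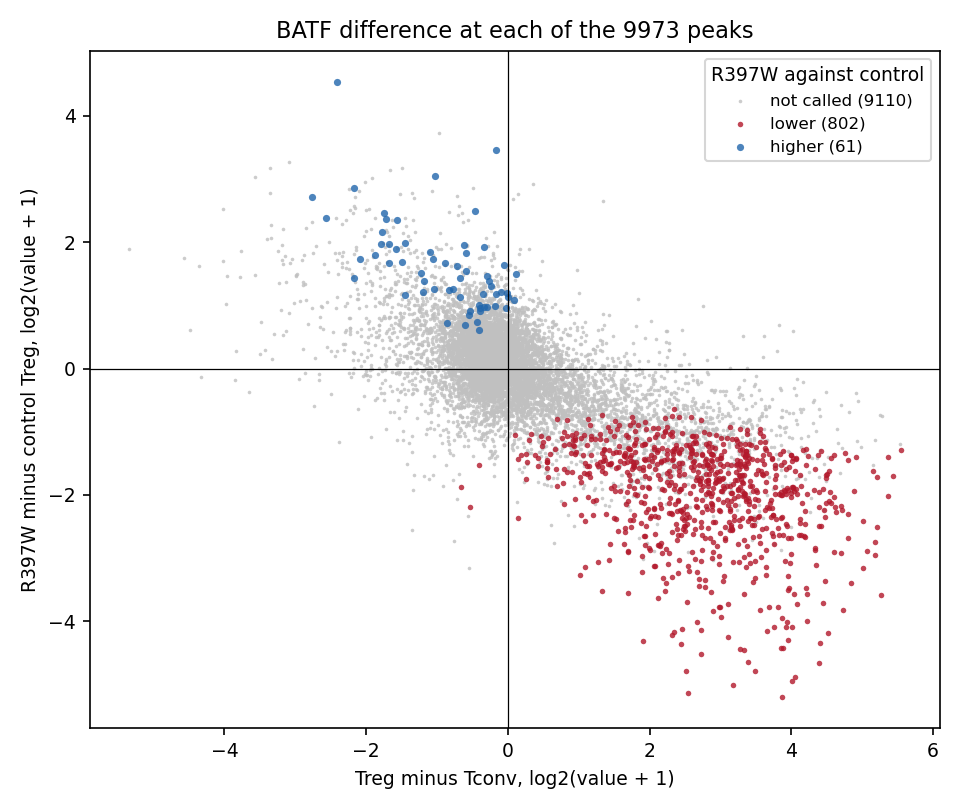
Each point is 1 of the 9973 BATF peaks, with the log2(value + 1) difference of Treg minus Tconv cells on the x axis and of R397W minus control Treg cells on the y axis. The 802 peaks called lower in R397W cells lie almost all to the right of 0, and the 61 called higher lie mostly to its left.

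In normalised value, R397W cells stood between control Treg and Tconv cells at the Treg-preferring peaks. Their median values there were 25.6 and 27.0, against 50.9 and 58.8 in the control columns. In the other libraries the medians were 44.6 and 40.04 in Treg cells, against 8.45 and 7.91 in Tconv cells. These Treg and Tconv libraries define the class, so the low Tconv values there follow from the choice of peaks. At Tconv-preferring peaks the medians were 35.9 and 31.2 in R397W cells, against 23.1 and 20.8 in control cells. There the Treg libraries had 19.0 and 19.7, against 47.2 and 50.5 in the Tconv libraries, a distance that again follows from the choice of peaks. Peaks with neither preference had medians of 41.0 and 40.2 in R397W cells and 38.6 and 38.0 in control cells.

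**Figure D2:**
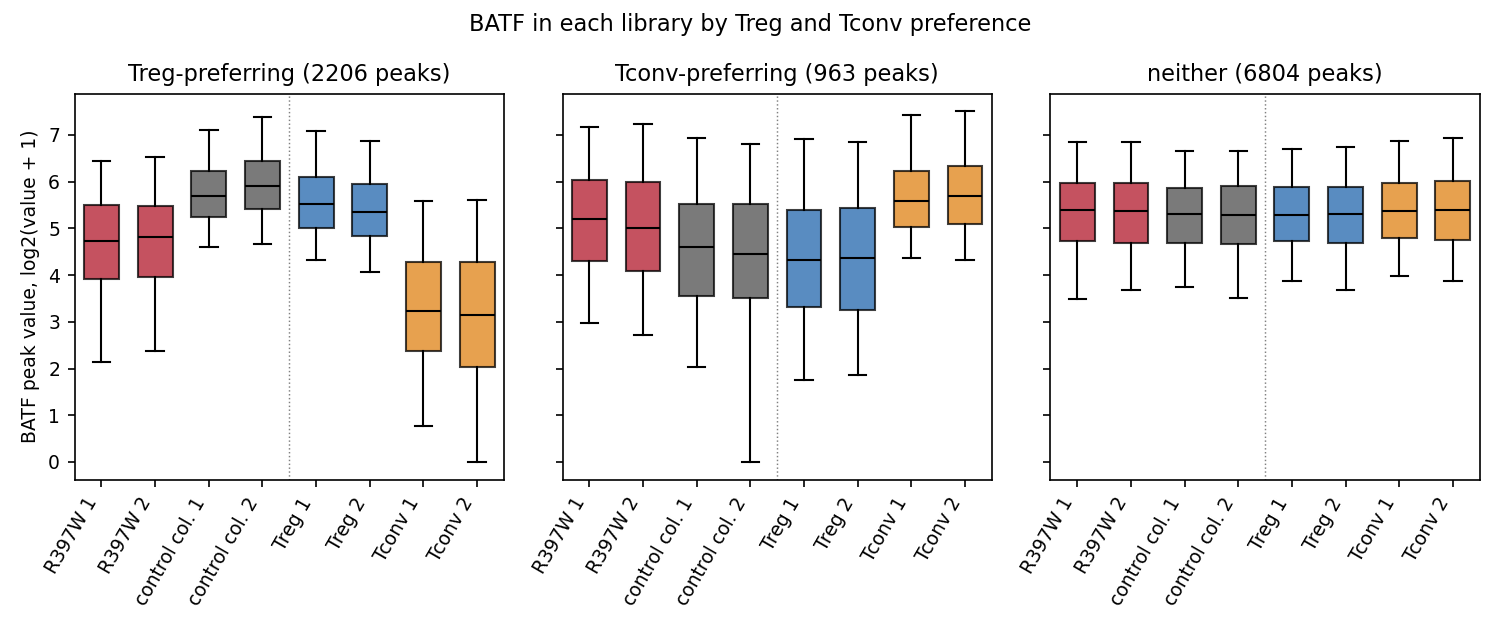
Boxes show the quartiles and median of log2(value + 1) in each library, with whiskers at the 5th and 95th percentiles, for peaks with Treg preference, Tconv preference and neither. At the 2206 Treg-preferring peaks both R397W boxes sit below both control boxes and above both Tconv boxes. At the 6804 peaks with neither preference the 8 boxes are alike. The Treg and Tconv libraries define the classes.

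BATF at the Foxp3 gene itself was measured at chrX:7583904-7584304, in the gene body. It had values of 42.7 and 83.9 in R397W cells and 105 and 96.8 in control cells, a log2 difference of -0.74 ± 0.32 (SE, adjusted p = 0.177 by limma). The groups did not overlap, but the difference did not pass the test. The same peak had 66.1 and 66.3 in Treg cells and 2.11 and 0 in Tconv cells, so that the sorted R397W cells had BATF at this Treg-preferring site. A point mutation cannot be checked from peak scores.

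Among the genes of the Treg core list, the largest fall was at Nrp1, which encodes neuropilin-1, a surface receptor of thymus-derived Treg cells. The list had 24 peaks near 12 of its 20 genes, of which 4 were lower (16.7%) and 0 higher, with a median log2 difference of -0.43 beside -0.02 over all peaks. Of the 24 peaks, 17 were Treg-preferring. Over all Treg-preferring peaks 34.0% were lower, with a median of -1.07, so the list fell less than that class. The strongest Nrp1 peak, chr8:128549745-128550145, lies 44269 bp outside the gene body. It had values of 94.0 and 67.9 in R397W cells and 285 and 349 in control cells, a log2 difference of -1.97 ± 0.24 (adjusted p = 0.000557 by limma). The groups stood far apart, the call held whichever library was left out, and 3 of the 4 Nrp1 peaks were lower. Ikzf2, which encodes the Treg factor Helios, had 22.2 and 35.3 in R397W cells and 74.0 and 72.6 in control cells (log2 difference -1.36 ± 0.37, adjusted p = 0.0289 by limma). That call was lost without R397W 1 and without either control column. The only peak assigned to Ctla4, the gene of an inhibitory receptor, starts at chr1:60936939. It had 18.8 and 20.1 in R397W cells and 44.7 and 38.0 in control cells, which did not pass the test (adjusted p = 0.177 by limma). A peak close to it, from chr1:60938969, was assigned to Icos and was lower. That call was lost without R397W 2 and without either control column. With only peaks in a gene body or within 20000 bp of it, the list had 17 peaks, 0 of them lower, since the called peaks of Nrp1 and Ikzf2 lie farther away. The markers Il2ra, Ikzf4 and Tnfrsf18 were not analysed here.

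Genes of effector Treg cells had the largest share of lower peaks among the 14 lists described. Of their 67 peaks near 19 of 29 genes, 25 were lower (37.3%) and 0 higher, with a median log2 difference of -1.21. Over all peaks 8.04% were lower. Of the 67 peaks, 51 were Treg-preferring, and over all Treg-preferring peaks 34.0% were lower, with a median of -1.07. The share and median of the list were a little past those of Treg-preferring peaks in general, although the list also holds peaks of other classes. Its Treg-preferring peaks were not counted apart. Its lower peaks lay near Bhlhe40, Cd44, Gata3, Icos, Il10, Itgav, Nfil3, Rora and Tigit. Nfil3, the gene of a leucine zipper repressor, had 56.4 and 74.8 at chr13:52976239-52976639 in R397W cells and 142 and 218 in control cells (log2 difference -1.42 ± 0.28, adjusted p = 0.00675 by limma). Bhlhe40, the gene of a helix-loop-helix repressor of activated T cells, had 53.0 and 45.0 in R397W cells and 120.3 and 135 in control cells (-1.36 ± 0.28, adjusted p = 0.00772 by limma). Both pairs of groups were apart. The Nfil3 call was lost without R397W 1 and without control column 2, and the Bhlhe40 call without R397W 2 and without control column 2.

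Receptors and cytokines of effector Treg cells gave a mixed picture within 1 locus. Il10, the gene of the suppressive cytokine interleukin-10, had 7 peaks, all Treg-preferring and all with a log2 difference below 0, of which 3 were lower. Its strongest peak, chr1:131010499-131010899, had 164 and 276 in R397W cells and 284 and 284 in control cells, a log2 difference of -0.41 ± 0.24 that did not pass the test (adjusted p = 0.335 by limma). The peak in the gene body, chr1:131022556-131022956, had 44.5 and 50.6 in R397W cells and 103 and 145 in control cells (-1.35 ± 0.29, adjusted p = 0.00982 by limma). BATF at the strongest Il10 peak was thus near the control level in R397W 2, while at the gene-body peak both R397W values lay below both control values. Without R397W 1 or control column 2 the call at the gene-body peak was lost, as was that at Tigit. Tigit, an inhibitory receptor gene, had 6 peaks, of which 3 were lower, with 25.6 and 36.7 in R397W cells and 80.2 and 104 in control cells at the strongest. Icos, a costimulatory receptor gene, had 6 peaks, of which 3 were lower. At its strongest it had 39.3 and 68.6 in R397W cells and 126 and 96.8 in control cells. The call was lost without R397W 1 and without either control column. The Treg libraries had 50.0 and 42.0 at this Icos peak, between the R397W values and below both control values. Il1rl1, the gene of the IL-33 receptor ST2, had few reads, with 17.1 and 13.2 in R397W cells and 12.3 and 31.1 in control cells, and its groups overlapped. Prdm1, which encodes Blimp-1, had 6.84 and 14.6 in R397W cells and 17.0 and 24.2 in control cells (adjusted p = 0.442 by limma).

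Rora, which encodes a nuclear receptor of tissue Treg and type 2 innate cells, had more lower peaks than any other gene. Of its 12 peaks, all in the gene body, 11 were Treg-preferring, 7 were lower, and all 12 had a log2 difference below 0, between -4.09 and -0.29. At chr9:69339820-69340220 BATF had 1.71 and 4.85 in R397W cells and 61.7 and 72.6 in control cells (log2 difference -4.09 ± 0.65, adjusted p = 0.00293 by limma). These are 1 and 7 reads in the R397W libraries and 40 and 21 in the control columns. The neighbouring peak, chr9:69340431-69340831, had 11.97 and 11.1 in R397W cells and 78.7 and 76.1 in control cells (-2.65 ± 0.44, adjusted p = 0.00354 by limma), a call lost without control column 2. The strongest Rora peak, with 56.4 and 58.2 in R397W cells and 119 and 89.9 in control cells, did not pass the test (adjusted p = 0.0796 by limma). After Rora, the genes with the most lower peaks were Atxn1 with 4 of 12, Itpr1 with 4 of 10, Lclat1 with 4 of 5 and Nab1 with 4 of 6.

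Genes of central and naive T cells stood close to the background as a list. Of 90 peaks near 17 of 22 genes, 8 were lower (8.89%) and 0 higher, and the median log2 difference was -0.03. The lower peaks lay near Bach2, Ets1, Foxp1, Il6ra and Tgfbr2. Bach2, the gene of a repressor that restrains effector differentiation, had 14 peaks, of which 3 were lower. At chr4:32588244-32588644 it had 113 and 126 in R397W cells and 208 and 252 in control cells (log2 difference -0.94 ± 0.23, adjusted p = 0.017 by limma). Foxp1, the gene of a forkhead factor of quiescent T cells, had 18 peaks, of which 2 were lower. The larger of these falls had 99.2 and 106 in R397W cells and 191 and 259 in control cells (-1.11 ± 0.24, adjusted p = 0.00979 by limma). Ets1 had 46.2 and 65.8 in R397W cells and 137 and 142 in control cells (-1.32 ± 0.28, adjusted p = 0.00883 by limma). Each of these lower peaks was Treg-preferring. The Ets1 call was lost without R397W 1, and those of Bach2 and Foxp1 without either R397W library and without control column 2.

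At Lef1, Tcf7, Klf2 and Ccr7, which are active in resting T cells, no difference at the strongest peak passed the threshold. Lef1 had 137 and 110.2 in R397W cells and 126 and 169 in control cells. Ccr7 had 83.8 and 61.7 in R397W cells and 69.4 and 65.7 in control cells. The groups overlapped at these 4 peaks. Satb1, the gene of a chromatin organiser, had 71.8 and 68.6 in R397W cells and 35.5 and 38.0 in control cells, which were apart but not past the threshold (adjusted p = 0.101 by limma). Of the 13 alternatives tried, the fit of all 8 libraries put it past the threshold (adjusted p = 0.0445 by limma), and with the other alternatives its adjusted p lay between 0.0666 and 0.429.

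At the genes of BATF itself and of its partner IRF4, the strongest peaks did not pass the test. Batf had 37.6 and 43.7 in R397W cells and 29.3 and 24.2 in control cells (adjusted p = 0.449 by limma). Irf4 had 42.7 and 48.5 in R397W cells and 49.4 and 48.4 in control cells (adjusted p = 0.904 by limma). Of the 31 peaks of the AP-1, BATF and IRF list, 3 were lower (9.68%) and 0 higher, with a median of -0.51. They lay near Irf2, Batf3 and Fosb, which encode an interferon regulatory factor and AP-1 family members. Irf2 had 15.4 and 22.9 in R397W cells and 83.3 and 69.2 in control cells (log2 difference -1.96 ± 0.40, adjusted p = 0.00772 by limma), a call lost without either control column.

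Among T helper lineage factors and cytokines, 12 of 36 peaks were lower (33.3%) and 0 higher, with a median of -0.88. Of the 36 peaks, 19 were Treg-preferring, a class of which 34.0% were lower over all peaks. Of the 12 lower peaks, 7 are the Rora peaks, which this list shares with the effector Treg list, and others lay near Cxcr5, Gata3 and Stat4. Gata3, the gene of the T helper 2 factor that effector Treg cells also use, had 17.1 and 29.8 in R397W cells and 74.0 and 72.6 in control cells (log2 difference -1.65 ± 0.39, adjusted p = 0.0152 by limma), a call lost without R397W 1 and without either control column. Stat4 had 11.97 and 1.39 in R397W cells and 44.7 and 38.0 in control cells, or 7 and 2 reads against 29 and 11, and its call was lost without R397W 2 and without either control column. Maf, which promotes interleukin-10 production, had 68.4 and 74.1 in R397W cells and 91.0 and 138 in control cells and did not pass the test (adjusted p = 0.177 by limma).

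The share of lower peaks at signalling and surface receptor genes was closer to the 8.04% over all peaks. The median log2 difference was -0.30 for T cell receptor and costimulatory signalling genes and -0.21 for cytokine receptor and STAT genes. It was -0.03 for chemokine receptor and homing genes, beside -0.02 over all peaks. Of T cell receptor and costimulatory signalling genes, 6 of 67 peaks were lower (8.96%) and 0 higher, near Dusp4, Lcp2, Malt1, Rel and Zap70. Dusp4, the gene of a MAP kinase phosphatase, had 44.5 and 55.4 in R397W cells and 109.5 and 138 in control cells (log2 difference -1.29 ± 0.28, adjusted p = 0.0109 by limma), a call lost without R397W 1 and without control column 2. Of cytokine receptor and STAT genes, 4 of 57 peaks were lower (7.02%), among them peaks near Il1r2, Il6ra and Stat4, and 1 was higher, near Ifngr1. Il1r2, the gene of a decoy receptor for interleukin-1 on effector Treg cells, had 34.2 and 50.6 in R397W cells and 119 and 156 in control cells (-1.68 ± 0.30, adjusted p = 0.00493 by limma), and this call held whichever library was left out. Of chemokine receptor and homing genes, 2 of 23 peaks were lower (8.70%) and 0 higher, both near Cxcr5.

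Of TNF and TNF receptor superfamily genes, 5 of 29 peaks were lower (17.2%) and 0 higher, with a median of -0.28. Of the 29 peaks, 14 were Treg-preferring, a class of which 34.0% were lower over all peaks. All 3 peaks of Tnfrsf8 were among the 5 lower ones, and the others lay near Fas and Tnfsf8. The Tnfrsf8 peak over the start, whose window is printed above, had 11.97 and 49.9 in R397W cells and 106 and 118 in control cells (log2 difference -2.14 ± 0.47, adjusted p = 0.0108 by limma). The groups were apart, but the R397W libraries differed widely from each other, and the call was lost without R397W 1 and without control column 2. The Dclk1 peak with both AP-1 matches had 23.9 and 27.0 in R397W cells and 55.5 and 100.3 in control cells (-1.52 ± 0.39, adjusted p = 0.0219 by limma). Its call was lost without either R397W library and without control column 2.

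Of the genes of Foxp3 partner factors, 6 of 84 peaks were lower (7.14%) and 1 was higher, with a median of -0.00. The lower peaks lay near Ets1, Ezh2, Foxp1, Gata3 and Ikzf2. The higher one, in Runx1, the gene of a DNA-binding partner of Foxp3, had 47.9 and 43.7 in R397W cells and 17.0 and 6.92 in control cells (log2 difference 1.97 ± 0.55, adjusted p = 0.0337 by limma). It was Tconv-preferring, as was the higher Ifngr1 peak, and its call was lost without either R397W library and without control column 2.

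**Figure D3:**
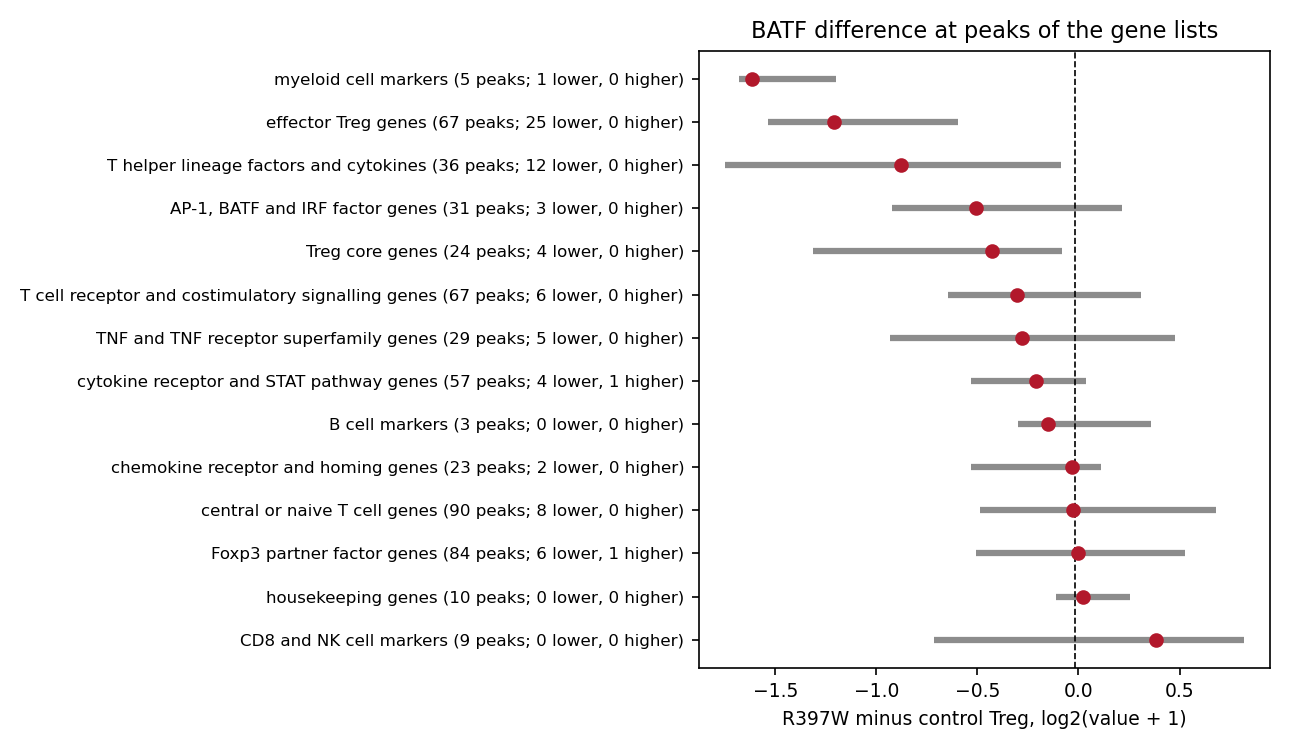
For each of the 14 gene lists, the point is the median and the bar the quartile range of the log2(value + 1) difference, R397W minus control, over the peaks nearest to its genes; the dashed line is the median of all 9973 peaks. Effector Treg genes have a median of -1.21 with 25 of 67 peaks lower, and housekeeping genes have 0.02 with 0 of 10 peaks called.

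Few BATF peaks lay near markers of other cells. The 3 peaks near B cell markers and the 9 near CD8 and NK cell markers held 0 called peaks. Their summed values were 120 and 89.4 for the B cell list in R397W cells, against 97.2 and 118 in control cells. For the CD8 and NK cell list the sums were 192 and 186 in R397W cells, against 205 and 228 in control cells. The 5 peaks near 3 of 15 myeloid markers had sums of 63.3 and 72.1 in R397W cells, against 194 and 166 in control cells, and 1 of them was lower, near Cebpa, which encodes C/EBP-alpha. That Cebpa peak had 6.84 and 4.16 in R397W cells and 35.5 and 34.6 in control cells (log2 difference -2.50 ± 0.65, adjusted p = 0.0247 by limma). The call was lost without R397W 2 and without either control column. The peak had 25.6 and 24.9 in Treg cells and 1.41 and 2.64 in Tconv cells. BATF at a marker gene is no measure of the cells present, and the part of other cells in the results was not tested.

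The 10 largest falls among called peaks above the median value left R397W values of at most 24.3, against control values of at least 50.9. That filter uses the mean over R397W and control libraries. Peaks with such low R397W values pass it only through their control values, so these limits follow in part from the choice of peaks. At Tox, which encodes a chromatin factor of T cell development and exhaustion, BATF had 5.13 and 7.62 in R397W cells and 133 and 100.3 in control cells (log2 difference -4.00 ± 0.47, adjusted p = 0.000496 by limma). The peak near Slc1a4, the gene of an amino acid transporter, had 5.13 and 0.693 in R397W cells, which are 3 and 1 reads, and 94.1 and 83.0 in control cells, which are 61 and 24 reads. Its log2 difference of -4.79 ± 0.69 (adjusted p = 0.0019 by limma) depends on the constant added to so few reads. In Nhej1, an end-joining repair gene, BATF had 0 and 6.24 in R397W cells and 58.6 and 104 in control cells. More was left at Cd82, the gene of a tetraspanin, with 3.42 and 24.3 in R397W cells and 95.6 and 69.2 in control cells. There the Tconv libraries had 14.8 and 19.3, between the 2 R397W values. All 10 lower peaks named by size were Treg-preferring, with the other 6 near Spag9, Cep44, Qrfprl, Tmprss11e, Stambp and Gins1. The calls at Slc1a4, Tox, Tmprss11e and Stambp, and at the Rora peak with the lowest values, held under all 13 alternatives tried. Among the 802 lower peaks, 155 had at least 1 R397W library at or under 3 reads, and 31 had both.

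The 10 largest rises among called peaks above the median value had log2 differences from 1.43 to 1.89, against -4.88 to -2.96 for the falls. The rises passed the same filter through their R397W values. Weaker peaks could differ more, and of all 61 higher peaks 11 were past 4-fold. Cnpy1 had 83.8 and 52.0 in R397W cells and 17.0 and 17.3 in control cells (log2 difference 1.89 ± 0.43, adjusted p = 0.0121 by limma). It had 24.4 and 19.7 in Treg cells and 58.5 and 78.2 in Tconv cells. Zfp710, a zinc finger gene, had 63.3 and 63.8 in R397W cells and 17.0 and 17.3 in control cells (1.83 ± 0.41, adjusted p = 0.0122 by limma). In Tconv cells it had 36.6 and 43.1, below both R397W values, while at Cnpy1 the R397W and Tconv values overlapped. Gramd3 had 92.3 and 71.4 in R397W cells and 27.8 and 31.1 in control cells (1.43 ± 0.34, adjusted p = 0.016 by limma). The Gatad2a peak over the start whose window is printed above had 82.1 and 83.9 in R397W cells and 41.6 and 20.8 in control cells (1.46 ± 0.37, adjusted p = 0.0223 by limma). The control values are 27 and 6 reads. There the Treg libraries had 57.7 and 65.6, above both control values, and the Tconv libraries 73.9 and 78.2. At Gramd3 the Treg libraries had 26.2 and 21.0, below both control values. R397W and control values were apart at each of the rises named so far. The other named rises, at Ubac2, Tor1a, Spef2, Btbd2, Spata48 and Cp, had log2 differences from 1.44 to 1.68. None of the 10 rises held under all 13 alternatives, and without R397W 1 none of them passed the test. Hbs1l was the only gene with more than 1 higher peak, with both of its 2 peaks higher.

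**Figure D4:**
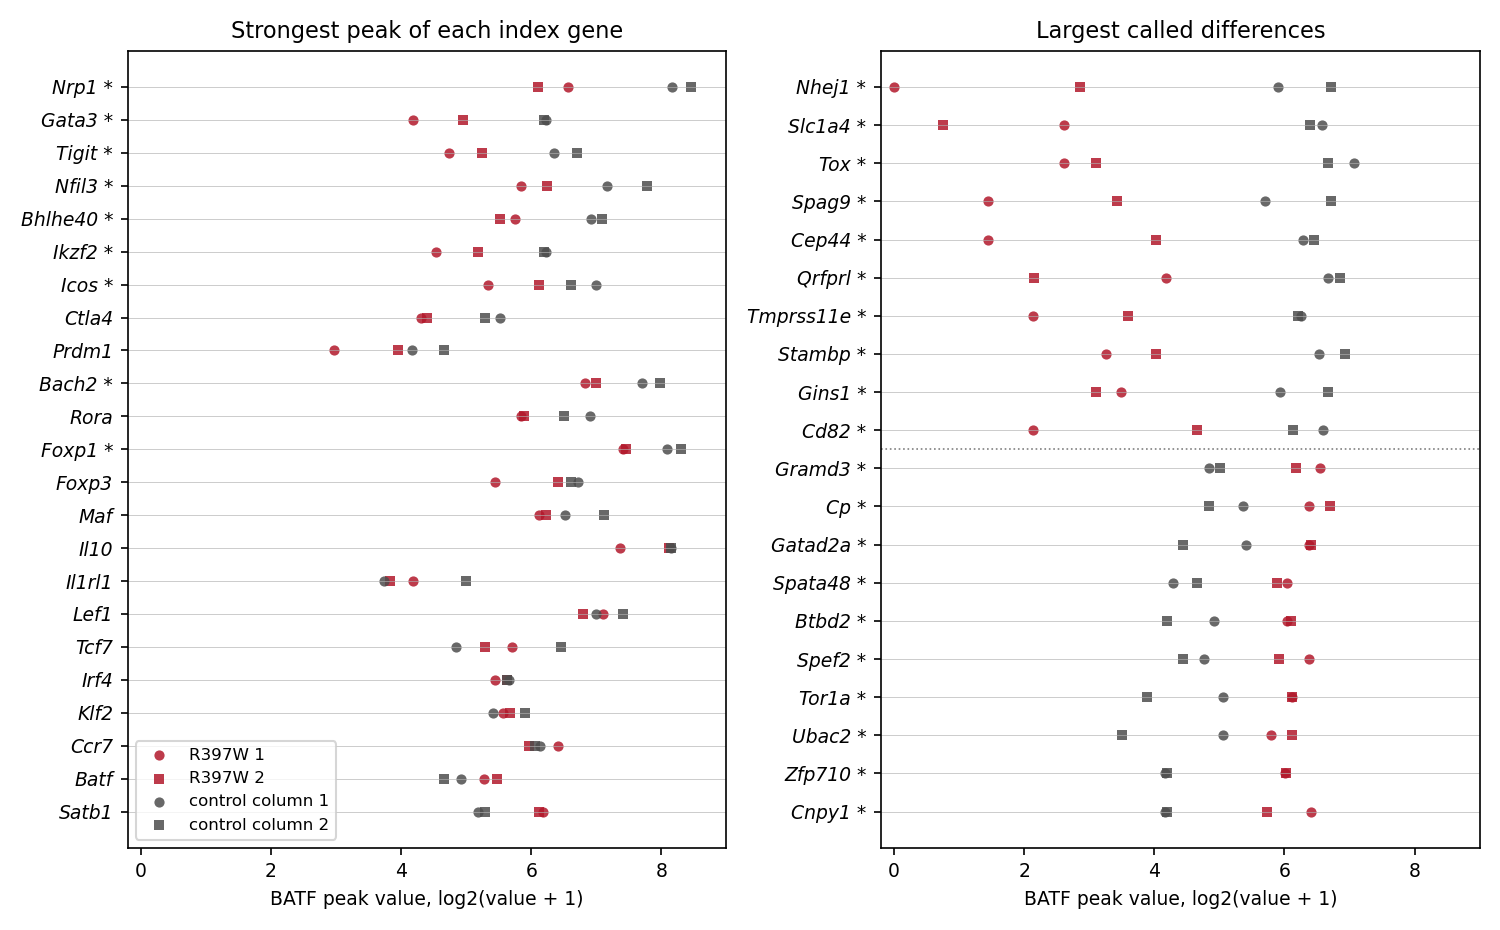
Values of BATF are shown as log2(value + 1) in R397W (red) and control (grey) libraries. Peaks are the strongest of each of 23 index genes, and the 10 largest falls and 10 largest rises among called peaks. The called peaks have a mean over these libraries above the median of all peaks. A star marks a call at an adjusted p under 0.05. Nrp1 is the farthest apart among the index genes, and Nhej1 and Slc1a4 each have an R397W point near the bottom of the scale.

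Lower peaks lay far from gene starts. Within 1 kb of a listed start, 17 of 3183 peaks were lower (0.53%) and 19 were higher, and the median log2 difference was 0.19. The share of lower peaks was 7.30% at 1 to 10 kb, 13.0% at 10 to 50 kb and 16.4% beyond 50 kb. Treg-preferring peaks were also rare near starts, at 2.80% of peaks within 1 kb and 42.3% beyond 50 kb. Among Treg-preferring peaks alone, the lower share was 15.7% within 1 kb (14 of 89), 28.5% at 1 to 10 kb, 34.7% at 10 to 50 kb and 37.8% beyond 50 kb. For 2364 peaks the start of the nearest gene was not listed, and 10.7% of these were lower.

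Sites shared with Foxp3 and IRF4 held more lower peaks than the rest. Of 1463 BATF peaks that overlapped both a Foxp3 and an IRF4 peak by at least 1 bp, 18.1% were lower, with a median log2 difference of -0.31. The share was 11.5% of 2598 peaks with IRF4 alone, 7.85% of 752 with Foxp3 alone and 3.47% of 5160 with neither. These classes also differed in strength and preference: peaks with both factors had a median value of 55.7 and were Treg-preferring in 41.2%, against 32.4 and 11.6% for peaks with neither. They differed in position too, among the peaks whose assigned gene has a listed start. Of these, 15.9% with both factors lay within 1 kb of the nearest listed start of any protein-coding gene. That share was 40.7% with IRF4 alone, 15.4% with Foxp3 alone and 52.6% with neither. Beyond 1 kb the lower shares were 19.6% with both, 17.2% with IRF4 alone, 7.22% with Foxp3 alone and 6.49% with neither. Within Treg-preferring peaks the lower shares were closer, at 41.0% with both, 35.2% with IRF4 alone, 29.4% with Foxp3 alone and 26.8% with neither. Stronger peaks were called more often there, from 29.5% in the weakest 25% of all peaks to 43.6% in the strongest 25%. The parts of strength, position and the other factors in these shares were not separated.

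**Figure D5:**
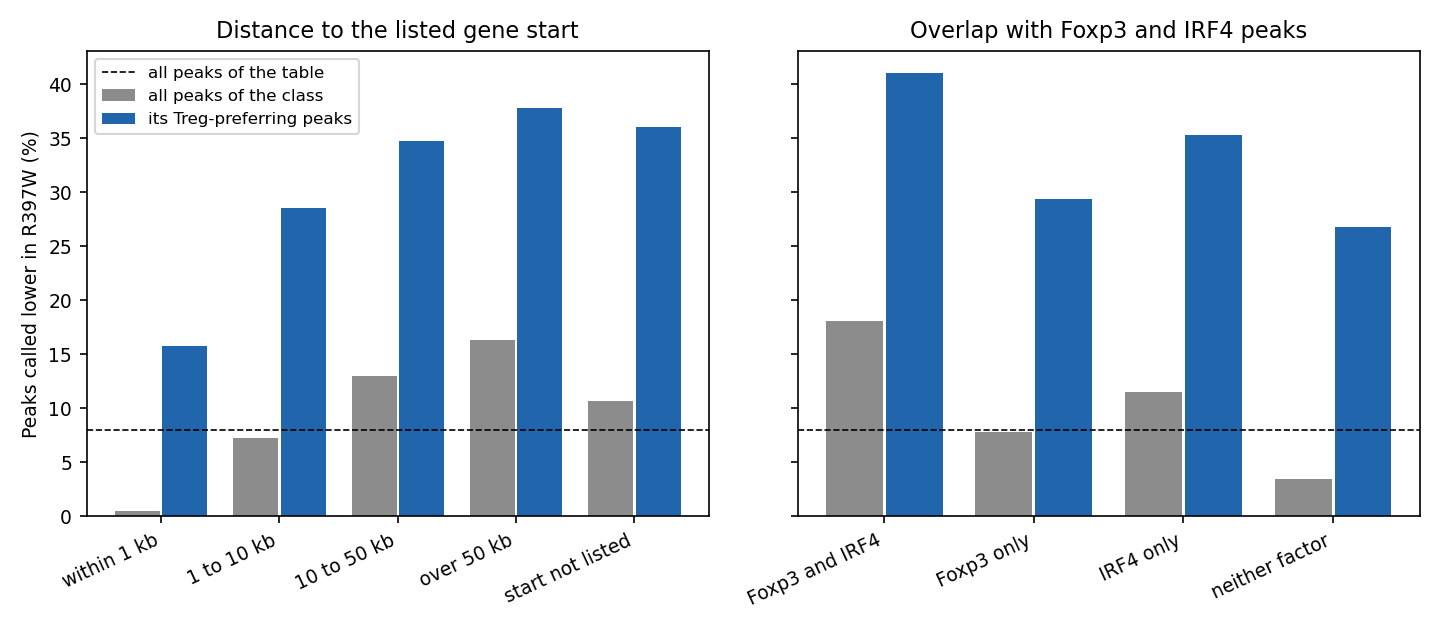
Bars give the share of BATF peaks called lower in R397W cells (y axis, percent). Classes are distance to the nearest listed gene start (left) and overlap with Foxp3 and IRF4 peaks (right). Grey bars are all peaks of a class and blue bars its Treg-preferring peaks. The dashed line marks 8.04% of all peaks. The grey bars range from 0.53% within 1 kb of a start to 18.1% at sites with both factors, and the blue bars lie between 15.7% and 41.0%.

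Foxp3 and IRF4 themselves were measured in other cells with wild-type Foxp3, and their values at the overlapping peaks are group means over 2 libraries for Foxp3 and 4 for IRF4. Of the 802 lower peaks, 324 overlapped a Foxp3 peak (40.4%, against 22.2% of all peaks). There the Foxp3 difference of effector minus central Treg cells had a median log2 of 1.57 and was above 0 at 95.7% of them, beside 0.03 and 51.6% for all BATF peaks with a Foxp3 peak. For Treg cells without Batf (Batf-/-) minus wild-type cells, the Foxp3 difference at the same sites had a median log2 of -0.80 and was above 0 at 11.1% of them, beside -0.02 and 47.5%. IRF4 peaks overlapped 564 of the lower peaks (70.3%, against 40.7% of all peaks), where IRF4 in Treg minus Tconv cells had a median log2 of 1.51. At the 24 higher peaks with a Foxp3 peak, the median Foxp3 difference of effector minus central Treg cells was -0.87, and that of knockout minus wild-type cells 0.29.

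The medians also differed inside the Treg-preferring class. The 302 lower Treg-preferring peaks with Foxp3 had a median effector minus central difference of 1.63, against 0.66 at the 487 that were not called lower. The knockout minus wild-type median was -0.86 at these lower peaks and -0.20 at the others. For IRF4 in Treg minus Tconv cells they were 1.55 at 536 lower peaks and 0.89 at 886 others. These medians are descriptions, with no test.

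The peak list itself depended on the libraries in it. Of the 9973 peaks, 1201 overlapped no peak of the authors' other BATF table, which was made without the R397W and control libraries. Of these 247 were lower (20.6%) and 5 higher, against 555 lower (6.33%) and 56 higher among the 8772 that overlapped one. The 1201 peaks had median values of 20.5 and 21.5 in R397W cells and 38.6 and 41.5 in control cells. Peaks can be in the list through high values in the compared control libraries, which favours lower calls. How far that raised the number of lower peaks was not tested. Treg-preferring peaks made up 53.2% of the peaks without such an overlap and 17.9% of those with one. On the X chromosome 4 of 349 peaks were lower (1.15%), against 8.29% on autosomes, and 4 of its 30 Treg-preferring peaks (13.3%), against 34.3%.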

How the data were processed

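Per the labels' protocols, fixed chromatin was immunoprecipitated with an anti-BATF antibody (clone D7C5). DiffBind 3.12.0, edgeR 3.38.4, MACS2 2.2.7.1 and Bowtie2 2.4.1 are named with build mm10, per the submitters' processing notes; their roles and filters are not given in the sources used here. The deposited values are a normalised signal per peak in 1 list for 8 libraries, and 99.9% of peaks are 400 bp long. Within 0.01, every value equalled a whole number of reads times the step of its library, so reads were recovered; total depth is unknown, and a change common to most peaks would be scaled away. The table numbers the control columns 1 and 2 where the titles have 3 and 4, so only their group is known. From the Foxp3 and IRF4 tables, overlaps and group means at overlapping peaks were used. Input libraries were not used.

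Peaks were fitted with limma 3.58.1 (R 4.3.3) on log2(value + 1), with variances moderated towards a trend in mean value; two-sided p-values were adjusted over all 9973 peaks. Alternatives were constants of 0.5 and 5, a filter at the 25th percentile, quantile normalisation, equal totals, no trend, 1 fit of all 8 libraries, edgeR 4.0.16 and DESeq2 1.42.0 on recovered reads, and each library left out. The fit was tested on simulated data. Peaks took the name of the closest protein-coding gene (RefSeq, GRCm38.p6) whose body lay within 100000 bp, not necessarily the gene regulated; 96.4% were assigned. Peak coordinates are those deposited; it is not settled if the first base is 0 or 1.

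The peaks, 14 gene lists, 28 index genes and tests were chosen with earlier results of these data known. Named peaks were the strongest peak of each index gene (23 had one), the 10 largest called falls and rises among peaks above the median value, 1 per gene, the called peaks with the smallest p of up to 3 genes per list, and genes with the most called peaks. Other peaks of these genes, and the promoters, were picked after their values were seen. A gene of these lists is counted but not reported here by name.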

Additional observations from a re-analysis of the deposited data

How the results depend on the processing

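The 802 lower peaks became 482 with quantile normalisation, 160 with no trend and 308 with DESeq2, and 124 to 610 with 1 library left out; with the other alternatives they were 667 to 930. The 61 higher peaks became 93 with a constant of 5, 111 with equal totals, 11 with no trend, 219 with all 8 libraries in 1 fit, 131 with edgeR and 7 with DESeq2, and 1 to 182 with 1 library left out. The 482 and the 308 were all among the 802, and so were 157 of the 160. Quantile normalisation and equal totals moved the median of all peaks to 0.13 and 0.09. Lower peaks were 92.9% of calls, against 89.3% and 85.7% under these scalings.

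The 2206 Treg-preferring and 963 Tconv-preferring peaks became 1202 and 588 with the 25th percentile filter, and 0 to 2160 and 0 to 824 with 1 library left out. The Tconv-preferring became 634 with no trend and 482 in the fit of all 8 libraries. A replicate block on the numbers in the titles gave 2343 and 1245. Deviations of same-numbered libraries correlated at 0.0943 over 9973 peaks. That correlation cannot show whether they share more than a number, since the labels do not name the mice. No paired analysis was possible because the R397W titles are numbered 1 and 2 and those of their controls 3 and 4. The lower share at peaks with neither Foxp3 nor IRF4 was 2.11% among peaks above the median value and 6.49% more than 1 kb from a listed start.

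Among named peaks, the signs that turned were all of differences that did not pass the test. Irf4 was at 0.027 with quantile normalisation and 0.00822 with equal totals. Tcf7 was at 0.0136 with quantile normalisation and between -0.95 and 0.65 with 1 library left out. Klf2 was at 0.10, 0.065, 0.0701 and 0.0326 with quantile normalisation, equal totals, edgeR and DESeq2, and between -0.29 and 0.20 with 1 library left out. With 1 library left out, Il1rl1 lay between -1.005 and 0.26 and Ccr7 between -0.13 and 0.31. Of 46 named calls, 38 were lost with no trend, 31 without control column 2 and 30 with DESeq2. The Satb1 peak gained a call with all 8 libraries in 1 fit. The cause was not tested. Depth limits what control column 2 can show, with a median of 12 reads per peak.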
